A study of Mus musculus with 13 samples.

Results

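The cytosolic ribosomal protein genes of the mouse were taken as the protein-coding genes whose symbols begin with Rpl or Rps and a digit, together with Rplp0, Rplp1, Rplp2 and Rpsa. Kinases of the Rps6k family, symbols marked as pseudogenes, and Rps19bp1 and Rps23rg1, which are only named after ribosomal proteins, were left out. The rule gave 87 of the 21883 protein-coding genes of the RefSeq annotation, on 19 chromosomes. Of these, 54 encode proteins of the large subunit, among them the 3 P stalk proteins, and 33 encode proteins of the small subunit. The set holds 77 standard genes, 7 genes classed as paralogs (Rpl3l, Rpl7l1, Rpl10l, Rpl22l1, Rpl36al, Rpl39l and Rps27l) and 3 retrogene copies (Rpl32l, Rpl37rt and Rps27rt). A gene was called occupied in a library where a peak overlapped, by 1 bp or more, the stretch of 1 kb on each side of either end of its gene model. The rule used symbols alone and no measured value, although the members were chosen with earlier results of these data known.

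Chromatin immunoprecipitation followed by sequencing was carried out on NU1 cells, a single line of mouse urothelial cells of wild-type genotype that became immortal spontaneously on passaging. Quiescent NU1 cells had been grown to confluence and then kept with 0.5 uM erlotinib, an inhibitor of the EGF receptor kinase, and 1 uM rosiglitazone, a PPAR gamma agonist; proliferating NU1 cells had received neither. Antibodies to STAG2, STAG1 and CTCF were each used at 25 ug on 550 ug of chromatin, with 2 biological replicates in each state, which gives 12 libraries in 6 groups. Confluence and both drugs came together in the quiescent cells, so their parts cannot be told apart, and nothing beyond the word biological says how separately the replicates were grown. Peak lists hold no expression, so the urothelial label was not checked against markers.

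Each ribosome has a small subunit, which reads the messenger RNA, and a large subunit, which joins the amino acids. Leaving aside pseudogenes, paralogs and retrogene copies, nearly every standard ribosomal protein gene is present once in the genome and is active in every dividing cell. Its message starts with a run of pyrimidines, the terminal oligopyrimidine (TOP) tract through which the mTOR pathway ties translation of the message to growth. Cohesin, a ring-shaped complex that pairs sister chromatids and extrudes chromatin loops, carries either STAG1 or STAG2 as a subunit, and its movement along DNA is halted where CTCF is bound.

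The lists held between 34281 and 71757 peaks, with no read totals, so the depth behind them is unknown. STAG1 in proliferating cells had the most unequal replicates for these genes, with 54 members occupied in replicate 1 and 76 in replicate 2. With 2 libraries against 2, an exact permutation test cannot reach a small p, so no test was run: every comparison below is a count or a value per library set beside the same measure over all protein-coding genes, and whether members and other genes differ was not tested. Fold enrichments are the authors' own values for each peak and are used only to describe and rank peaks within a list; a value given for a protein at a gene below is the fold enrichment of its peak in each library, replicate 1 before replicate 2. A peak at the shared window of close neighbours counts for each of them, which concerns 44 of the 87 members.

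Promoter letters were read at the starts of these genes. Of the 87 members, 67 have a start in the RefSeq promoter table (GRCm38.p6, the assembly also known as mm10), as do 17491 protein-coding genes. Where a gene has more than 1 listed start, only the most upstream one was searched for motifs and pyrimidine runs. The core of the CTCF motif, searched as CC, any 3 bases, AGG, any base and GGC, on both strands from 250 bases before to 50 after the start, was present in 4 of the 67 member promoters (5.97%), against 4.14% of all promoters. These 4 are printed because they show a CTCF match in the promoter itself; the capitals mark the match, and each line reads 5' to 3' along the gene.
Rpl37 (chr15:5116451-5116542, plus strand): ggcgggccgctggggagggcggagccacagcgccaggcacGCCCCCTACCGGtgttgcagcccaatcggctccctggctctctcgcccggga
Rpl5 (chr5:107900425-107900516, plus strand): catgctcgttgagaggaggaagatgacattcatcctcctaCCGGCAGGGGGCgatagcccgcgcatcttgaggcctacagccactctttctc
Rpl7a (chr2:26910558-26910649, plus strand): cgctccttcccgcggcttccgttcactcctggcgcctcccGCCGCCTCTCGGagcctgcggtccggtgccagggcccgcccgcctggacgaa
Rps15a (chr7:118116250-118116341, minus strand): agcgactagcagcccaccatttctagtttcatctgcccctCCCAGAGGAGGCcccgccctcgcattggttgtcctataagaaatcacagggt
At Rpl37 and Rpl5 the match lay within a site where CTCF was called in all 4 libraries at above 30-fold. The site over the promoter of Rpl7a had CTCF at under 7-fold in all 4, and Rps15a had a CTCF peak in 1 of 4, so these matches came with strong and with weak peaks.

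The TOP tract was visible in the same table. A run of C followed by at least 4 pyrimidines began exactly at a listed start in 14 of the 67 members (20.9%), against 2.17% of all promoters, and within 10 bases of it in 39 (58.2%), against 31.1%. The windows below, 15 bases on each side of the start, belong to genes named in the results; capitals mark the match of that search, begun at the C nearest to the listed start, so pyrimidines before that C stay in lower case.
Rpl27a (chr7:109519180-109519209, plus strand): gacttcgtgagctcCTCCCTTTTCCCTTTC
Rpl10a (chr17:28328456-28328485, plus strand): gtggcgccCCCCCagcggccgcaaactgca
Rpl22l1 (chr3:28805493-28805522, plus strand): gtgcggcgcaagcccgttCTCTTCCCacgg
Rpl39 (chrX:37085208-37085237, minus strand): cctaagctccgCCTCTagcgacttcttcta
Rps19 (chr7:24884577-24884606, plus strand): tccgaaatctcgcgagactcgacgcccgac
Rpl27a has the longest of these matches, 17 bases, which goes on past the printed window and has further pyrimidines directly before it. The Rpl10a match also has pyrimidines before it and ends before the listed start. Rps19 has no such match within 10 bases of the most upstream of its 3 listed starts, and its other starts were not searched. The ETS letters CCGGAAG were found in 25 of the 67 member promoters (37.3%), against 11.9% of all promoters. The YY1 letters AAGATGG were found in 10 (14.9%, against 6.35%) and the GC box GGGCGG in 39 (58.2%, against 46.3%), all on both strands and each searched on its own, with overlaps between motifs left in. The E box CACGTG was found in 5 (7.46%, against 7.91%), and TATAAA, on the gene strand only, in 7 (10.4%, against 8.99%). Median GC content was 57.0% in member promoters and 56.3% in all promoters. These matches are descriptions of letters and not sites of binding.

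STAG2 was called at the ends of most ribosomal protein genes in both states. Both quiescent libraries had a STAG2 peak at 71 of 87 members (81.6%), against 54.3% of all genes, and both proliferating libraries likewise at 71 (81.6%), against 54.6%. The replicates gave nearly the same number, with 74 and 72 members in quiescent cells and 73 and 73 in proliferating cells. STAG1 was called at fewer members: 56 in both quiescent libraries (64.4%, against 47.0% of all genes) and 54 in both proliferating libraries (62.1%, against 48.8%). CTCF lay between, with 60 members in both quiescent libraries (69.0%, against 46.6%) and 64 in both proliferating libraries (73.6%, against 50.1%). In each of the 6 groups the share of members was above the share of all genes, and the states differed by at most 4 members within an antibody.

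**Figure D1:**
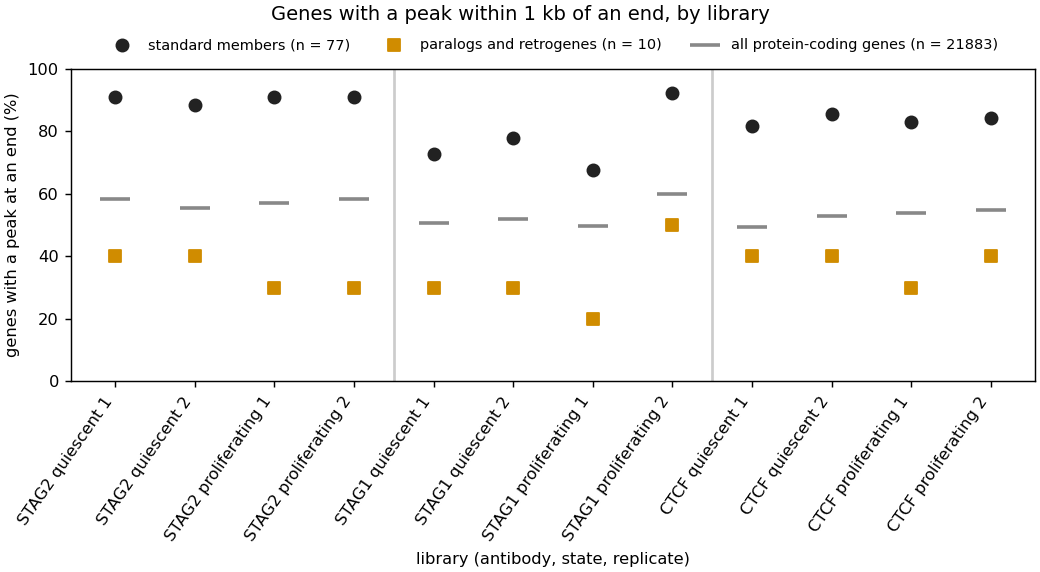
Percent of genes with a peak within 1 kb of an end (y axis) in each of the 12 libraries (x axis, by antibody, state and replicate); black circles are the 77 standard ribosomal protein genes, orange squares the 10 paralogs and retrogene copies, and grey bars all 21883 protein-coding genes. The standard genes lie above the grey bar and the paralogs and copies below it in every library, and STAG1 in proliferating replicate 2 stands above its replicate for all 3 sets.

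The margin over other genes was smaller for cohesin with shorter lists. Cut to the 20000 strongest peaks in every library, the lists placed STAG2 at 38 members in quiescent cells (43.7%, against 37.3% of all genes) and 34 in proliferating cells (39.1%, against 31.4%). STAG1 was then at 26 members in quiescent cells (29.9%, against 27.1%) and 27 in proliferating cells (31.0%, against 25.8%). CTCF remained further above the other genes, at 37 members in quiescent cells (42.5%, against 21.8%) and 32 in proliferating cells (36.8%, against 24.6%).

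The standard genes carried the high share. STAG2 was present in both quiescent libraries at 67 of the 77 standard genes (87.0%) and in both proliferating libraries at 68 (88.3%), whereas among the 10 paralogs and retrogene copies these counts were 4 and 3. All 12 libraries had a peak at 42 members (48.3%), against 36.3% of all genes. Of those 42, 41 were standard genes, and Rpl7l1 was the only other one. They were 30 of the 54 large subunit genes (55.6%) and 12 of the 33 small subunit genes (36.4%, near the 36.3% of all genes). By antibody, all 4 libraries had a peak at 67 members for STAG2 (77.0%, against 51.8%), at 51 for STAG1 (58.6%, against 44.0%) and at 56 for CTCF (64.4%, against 44.3%). Members are short genes, with a median length of 3175 bp against 17170 bp over all genes; the part of length in these shares was not tested.

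**Figure D2:**
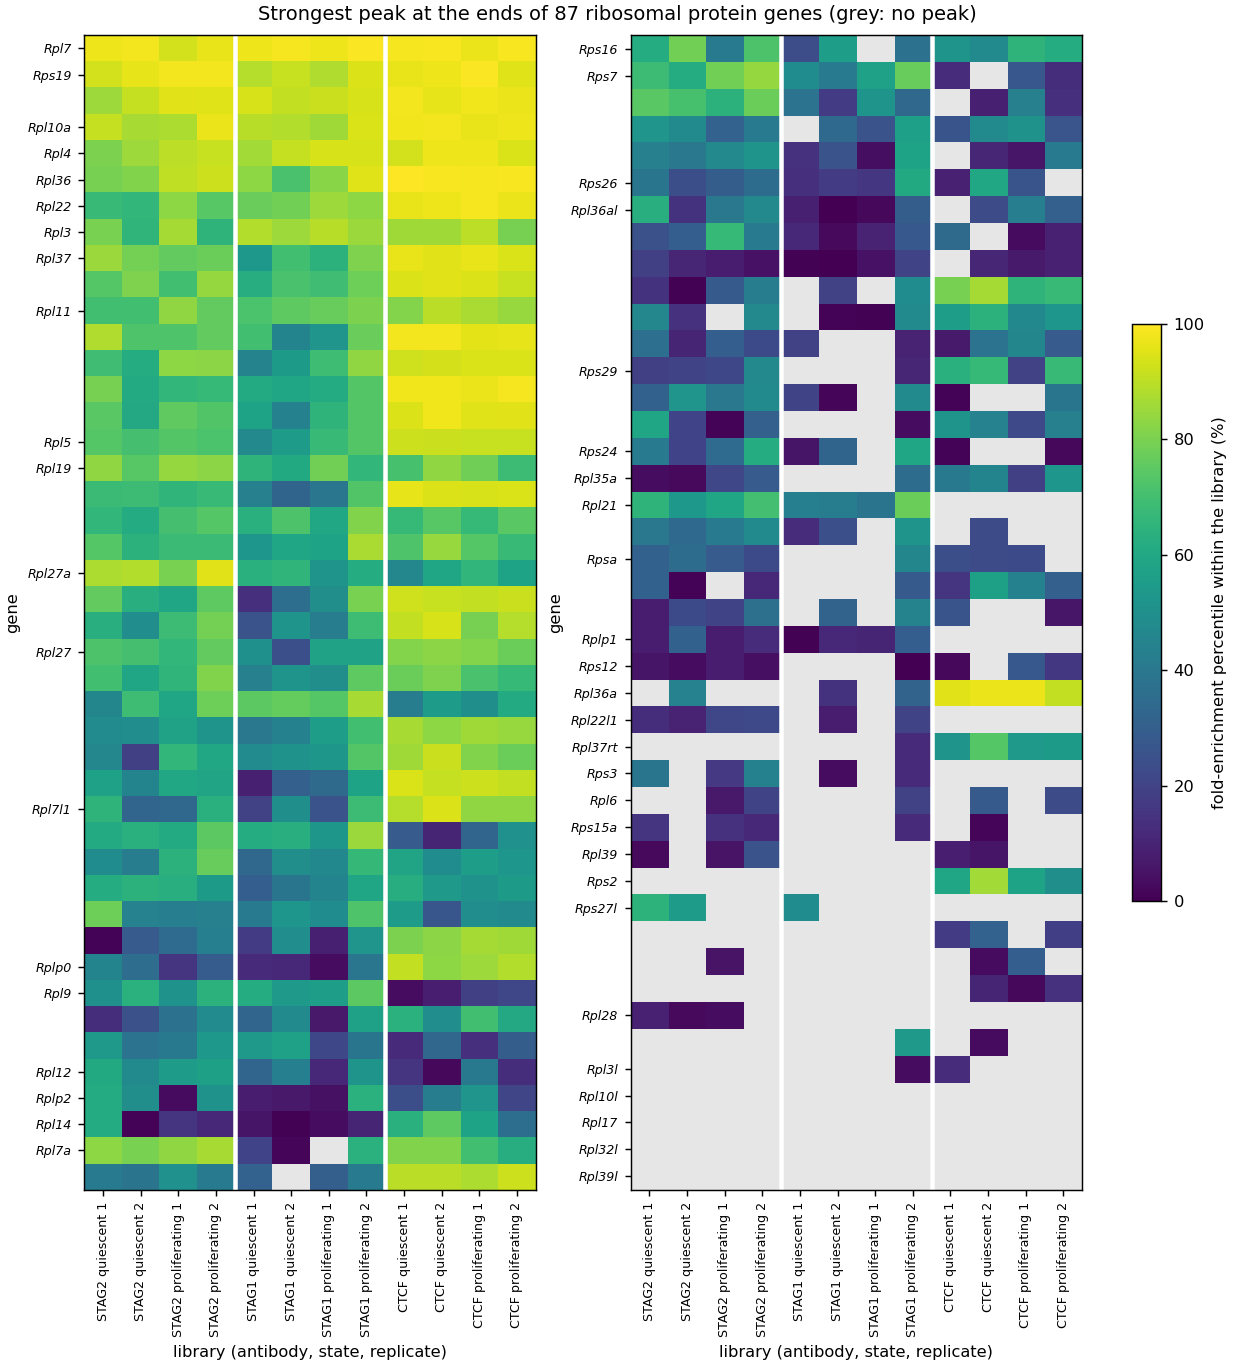
Strongest peak at the ends of each of the 87 genes (rows, ordered by the number of libraries with a peak and then by mean percentile) in each of the 12 libraries (columns); colour gives the percentile of its fold enrichment among all peaks of that library, and grey means no peak. The 42 genes with a peak in every library open the left panel, and 4 genes with none close the right panel; labels mark some of the genes named in the text.

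Only 4 members had no peak at either end in any library (4.6%, against 32.0% of all genes): Rpl10l and Rpl39l, which are retained copies with testis-biased expression, the retrogene copy Rpl32l, and Rpl17, a standard gene of the large subunit. Rpl17 did have peaks, inside its gene model and beyond both windows. STAG2 was called there in 4 of 4 libraries, at 6.4 and 5.18-fold in quiescent cells, against 3.5 and 2.86-fold in proliferating cells; STAG1 was called in 1 library and CTCF in 2. No library had a peak over the gene models of Rpl10l, Rpl39l and Rpl32l, even with the 1 kb margin.

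The strongest cohesin peaks of the set lay at a few genes, several of them shared by all 3 proteins. By the mean percentile of fold enrichment within a library, the first 6 genes for STAG2 included Rps19 (96.49), Rpl7 (96.45), Rpl10a (90.68), Rpl27a (87.9) and Rpl4 (86.8). The first 6 for STAG1 included Rpl7 (98.12), Rpl4 (91.41), Rps19 (90.75), Rpl10a (89.47) and Rpl3 (87.03). Those for CTCF included Rpl36 (99.1), Rpl7 (98.5), Rpl22 (97.56) and Rpl10a (97.54). Rpl7 and Rpl10a were thus among the first 6 for each of the 3 proteins. Several of these genes have neighbours whose windows meet theirs: Rdh10 at Rpl7, Fance and Tead3 at Rpl10a, Micos13 and Lonp1 at Rpl36, and Zwilch and Snapc5 at Rpl4. The strong sites of Rpl7, Rpl4 and Rpl3 described below lay outside the gene models. Which gene such a peak belongs to was not tested.

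Rpl7, a protein of the large subunit, had its strong site at chr1:16104552-16106478. STAG2 fold enrichment there was 50.6 and 47.9 in quiescent cells, against 30.6 and 32.4 in proliferating cells. STAG1 reached 49.3 and 61.2 in quiescent cells, against 47.9 and 62.1 in proliferating cells. CTCF reached 66.1 and 59 in quiescent cells, against 51.9 and 72.3 in proliferating cells. The quiescent STAG2 values lay above both proliferating ones, while the states overlapped for STAG1 and for CTCF. The lists of the states are not on one scale: over all genes with a peak the median STAG2 fold enrichment was itself higher in quiescent cells, at 13.8 and 11.2, than in proliferating cells, at 10.3 and 9.44, so an order between states at a gene is given as values only. Rpl10a, part of the mobile L1 stalk of the large subunit, had a start site at chr17:28327687-28329620 over the sequence printed above. STAG2 fold enrichment there was 32.3 and 24 in quiescent cells, against 23 and 33.2 in proliferating cells. CTCF reached 61.5 and 51 in quiescent cells, against 49.8 and 56.6 in proliferating cells. A further Rpl10a site past the other end of the gene, at chr17:28331958-28332829, was also called in all 12 libraries, with STAG2 at 17 and 9.67 in quiescent cells, against 13 and 8.98 in proliferating cells. The replicates overlapped between states at both sites.

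Rpl36, of the large subunit, had the highest CTCF rank of the set. Its strong site, chr17:56612804-56614856, had CTCF at 86.8 and 56.4 in quiescent cells, against 60.4 and 72.3 in proliferating cells, and STAG2 at 20.5 and 20.0 in quiescent cells, against 26.4 and 23.5 in proliferating cells. Rpl4, which lines the exit tunnel of the large subunit, had its strong site beyond the 3' end of the gene, at chr9:64178972-64179864. STAG1 there was 24.5 and 33.9 in quiescent cells, against 37.9 and 34.9 in proliferating cells. STAG2 there was 21 and 22.9 in quiescent cells, against 25.5 and 22.5 in proliferating cells. Rpl3, close to the peptidyl transferase centre, had STAG1 at 27.4 and 25.1 in quiescent cells, against 29.7 and 20.6 in proliferating cells, and STAG2 at 20.6 and 13.3 in quiescent cells, against 21.5 and 9.28 in proliferating cells, both at chr15:80076516-80077230. The states overlapped for CTCF at Rpl36 and for STAG1 at Rpl3, and both proliferating values lay above both quiescent ones for STAG2 at Rpl36 and for STAG1 at Rpl4.

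Rps19, a small subunit protein and the gene most often mutated in human Diamond-Blackfan anaemia, held different proteins at different sites. The strongest site, chr7:24890290-24890978, lay beyond the 3' end, with STAG2 at 36.3 and 39.1 in quiescent cells, against 45.7 and 39.6 in proliferating cells. Both proliferating STAG2 values lay above both quiescent ones. CTCF at that site reached 52.3 and 48.1 in quiescent cells, against 66.9 and 45.7 in proliferating cells. At the start of the gene, chr7:24884357-24885256, STAG2 was called at 8.8 and 6.4 in quiescent cells, against 5.5 and 6.25 in proliferating cells, and STAG1 at 6.0 and 4.2 in quiescent cells, against 3.8 and 5.2 in proliferating cells. No CTCF library had a peak at that start site. CTCF was instead called just upstream, at chr7:24883735-24884339, at 12 and 15.8 in quiescent cells, against 14.2 and 11.8 in proliferating cells, a site that also had weaker STAG2 peaks in 3 libraries and STAG1 in 1. The start site thus had both STAG proteins in 8 of 8 libraries between a CTCF site upstream and a strong site of all 3 proteins past the other end.

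Rpl37, a large subunit protein whose CTCF match is printed above, had the reverse arrangement at its far end. Over the promoter, chr15:5115896-5117155, CTCF reached 54 and 40.3 in quiescent cells, against 50.3 and 42 in proliferating cells. STAG2 at the promoter reached 24.7 and 18.7 in quiescent cells, against 14.8 and 12.7 in proliferating cells. Beyond the 3' end, at chr15:5119578-5120182, CTCF alone was called, at 16.7 and 20.4 in quiescent cells, against 12.8 and 13 in proliferating cells, and neither STAG protein had a peak in any of 8 libraries.

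**Figure D3:**
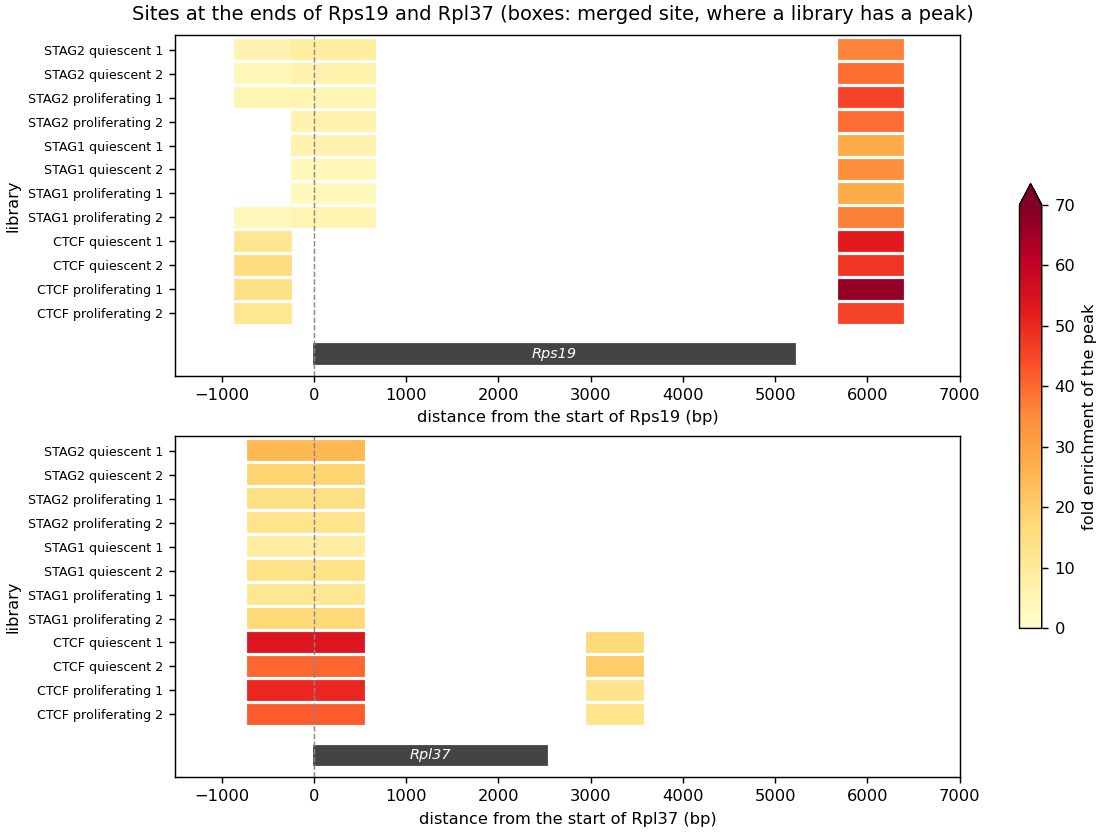
Sites at Rps19 (top) and Rpl37 (bottom) by distance from the gene start in bp (x axis) and library (y axis); each box is a merged site in a library that called a peak there, coloured by fold enrichment, and the dark bar is the gene. The start site of Rps19 is filled in the 8 STAG libraries and empty for CTCF, and the far site of Rpl37 is filled for CTCF only.

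Rpl27a, of the large subunit, was among the first 6 for STAG2 and not for STAG1 or CTCF. At its start, chr7:109518620-109520180, STAG2 fold enrichment was 27.6 and 25.9 in quiescent cells, against 16.8 and 29.2 in proliferating cells. STAG1 there was 10.8 and 12.1 in quiescent cells, against 9.0 and 9.5 in proliferating cells. CTCF there was 7.3 and 10.7 in quiescent cells, against 12.1 and 9.05 in proliferating cells. Rpl7a, another large subunit gene, had STAG2 over its promoter at 23 and 19.1 in quiescent cells, against 19 and 17.9 in proliferating cells, with CTCF at 5.0 and 4.75 in quiescent cells, against 5.0 and 6.75 in proliferating cells, and STAG1 in 3 of 4 libraries. Rpl36a, also of the large subunit, was the opposite case, with CTCF at 46.9 and 46.4 in quiescent cells, against 50.9 and 33.9 in proliferating cells, and STAG2 in quiescent replicate 2 only, at 8.98-fold. Fold values of different antibodies are not on one scale, so these are differences in rank among a library's own peaks.

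Over all members with a peak, cohesin peaks did not stand out in strength. The median percentile of the members' strongest STAG2 peak was 61.2 and 49.2 in the quiescent libraries and 57.5 and 59.9 in the proliferating ones, each below that of all occupied genes in the same library, which was 66.0 and 57.7 in quiescent and 62.1 and 65.6 in proliferating libraries. STAG1 gave 43.6 and 45.2 in quiescent and 51.8 and 59.0 in proliferating libraries, against 52.0 and 51.6 in quiescent and 49.8 and 66.9 in proliferating libraries over all occupied genes. CTCF gave 67.0 and 74.6 in quiescent and 67.1 and 62.4 in proliferating libraries, against 63.7 and 62.8 in quiescent and 61.9 and 64.5 in proliferating libraries over all occupied genes. Members therefore lay lower than other occupied genes in all 4 STAG2 libraries and in 3 of 4 STAG1 libraries, and higher in 3 of 4 CTCF libraries. Only genes with a peak enter these medians.

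The paralogs differed among themselves. Rpl7l1, a paralog of Rpl7, had a site at its 3' end, chr17:46772334-46774370, with STAG2 at 13.5 and 7.48 in quiescent cells, against 5.99 and 8.98 in proliferating cells. CTCF there was 28.9 and 38.4 in quiescent cells, against 24 and 22 in proliferating cells. Rpl36al, a paralog of Rpl36a, was called for STAG2 in 4 of 4 libraries and for CTCF in 3, while Rpl36a itself had CTCF in 4 of 4 and STAG2 in 1. Rpl3l, the form of Rpl3 used in heart and skeletal muscle, had no STAG2 peak at its ends, STAG1 in 1 library and CTCF in 1, where Rpl3 had all 3 proteins in every library. Over the whole model of Rpl3l with its margin, however, CTCF was called in 4 of 4 libraries, with STAG1 still in 1 and STAG2 in none.

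The 3 P stalk genes, whose proteins recruit translation factors to the large subunit, all had STAG2 and STAG1 in every library. Rplp0, the base of the stalk, had 2 sites in all 12 libraries. The start site had STAG2 at 8.6 and 7.91 in quiescent cells, against 4.67 and 5.0 in proliferating cells. CTCF there was 33.2 and 21.7 in quiescent cells, against 26.2 and 29.3 in proliferating cells. The other site, chr5:115564638-115565918, reached the window, but its strongest STAG2 peak in each library stopped short of it. Rplp2 had STAG2 at 12.3 and 9.67 in quiescent cells, against 3.67 and 7.0 in proliferating cells, and CTCF at 5.4 and 7.67 in quiescent cells, against 8.56 and 5.0 in proliferating cells. Both quiescent STAG2 values of the Rplp0 start site and of Rplp2 lay above both proliferating ones, the order that the medians over all genes also had. Rplp1 had STAG2 at 4.67 and 7.33 in quiescent cells, against 4.03 and 4.33 in proliferating cells, at chr9:61914086-61915046, and no CTCF peak in any library.

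STAG2 was present in both libraries of each state at all 9 genes on the list of human Diamond-Blackfan anaemia genes, which include Rpl5, Rpl11, Rps7 and Rps19, against 87.0% of the 77 standard members and 54.3% of all genes in quiescent cells, and 88.3% and 54.6% in proliferating cells. The list does not hold every gene tied to the disease: Rps28, named here after its values were seen, is also tied to it and had no STAG2 peak in any library. STAG1 was present at 8 of the 9 in quiescent cells (88.9%, against 70.1% of the standard members and 47.0% of all genes). In proliferating cells STAG1 was present at 7 (77.8%, against 67.5% and 48.8%). CTCF was present at 7 in quiescent cells (77.8%, against 74.0% and 46.6%) and at 7 in proliferating cells (77.8%, against 79.2% and 50.1%). The CTCF shares were thus near those of the standard members. Rpl35a had STAG2 at 4.0 and 4.25 in quiescent cells, against 5.0 and 5.0 in proliferating cells, and STAG1 only in proliferating replicate 2. Rps24 had STAG2 at 8.0 and 6.33 in quiescent cells, against 6.34 and 8.67 in proliferating cells, and its CTCF peaks were seen in 1 library of each state. Rps26, whose protein lines the exit of the messenger RNA, had STAG2 at 7.55 and 6.65 in quiescent cells, against 5.74 and 5.5 in proliferating cells, at a site with no CTCF peak, next to a CTCF site called in 3 libraries.

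Some ribosomal proteins bind and inhibit Mdm2, the ligase that degrades p53, when ribosome assembly fails. Of the 6 listed here (Rpl5, Rpl11, Rpl23, Rpl26, Rps3 and Rps7), 5 had STAG2 in both quiescent libraries (83.3%, against 87.0% of the standard members) and 6 in both proliferating ones (against 88.3%). The exception in quiescent cells was Rps3, with STAG2 at 7.55 in quiescent replicate 1 with no peak in the other, against 4.95 and 6.35 in proliferating cells, and no CTCF. Rps7, of the small subunit, had STAG2 at 14.7 and 12.3 in quiescent cells, against 16.2 and 15.9 in proliferating cells, and CTCF in 3 of 4 libraries at 4.53 to 5.67-fold. Rpl5 and Rpl11, which act on Mdm2 together with 5S rRNA, had peaks in all 12 libraries. Rpl5 had STAG2 at 17 and 14.7 in quiescent cells, against 13.6 and 10.9 in proliferating cells, and CTCF at 36.7 and 32.7 in quiescent cells, against 35.9 and 35.1 in proliferating cells. Rpl11 had STAG2 at 15.1 and 14.5 in quiescent cells, against 19.3 and 12.1 in proliferating cells, and CTCF at 19.2 and 28.7 in quiescent cells, against 28.7 and 23.8 in proliferating cells. The replicates of the states overlapped at Rpl11. At Rpl5 both quiescent STAG2 values lay above both proliferating ones, the order that the medians over all genes also had. At Rps7 both proliferating STAG2 values lay above both quiescent ones.

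Very few members were called in 1 state only. Both quiescent libraries and no proliferating one had STAG2 at 1 member, Rps27l (1.15%, against 0.603% of all genes). Both proliferating libraries and no quiescent one had STAG2 at 1 member, Rpl6 (against 0.841%). STAG1 gave 0 members in either direction, where all genes gave 0.178% for quiescent and 1.12% for proliferating cells. CTCF gave Rpl39 for quiescent cells (1 member, against 0.434%) and 0 for proliferating cells (against 1.56%). Counts of 0 or 1 among 87 genes are what such low shares leave room for, and nothing is read from them.

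These 3 calls rested on weak peaks or on the window. Rps27l, a p53-responsive paralog of Rps27, has its listed start 1462 bp inside its gene model, and the site there, chr9:66945582-66946769, was called in all 12 libraries. STAG2 at that site reached 13.3 and 10.6 in quiescent cells, against 7.0 and 12.1 in proliferating cells; the proliferating peaks stopped short of the window, so the call disappears once listed starts are added to the ends. Rpl6, of the large subunit, had weak STAG2 peaks at 4.0 and 4.67-fold in proliferating cells, against none in quiescent cells, and its STAG1 peak was seen in proliferating replicate 2 alone. Rpl39, at the exit tunnel of the large subunit, had CTCF at 4.33 and 4.33 in quiescent cells, against no peak in either proliferating library. STAG2 at Rpl39 was seen in 3 libraries at 3.99 to 4.99-fold, and STAG1 in none.

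STAG2 without STAG1 was called at more members in quiescent than in proliferating cells, but the difference moved with single libraries. Both STAG2 libraries and neither STAG1 library had a peak at 7 members in quiescent cells (8.05%, against 2.94% of all genes), among them Rpl28, Rpl35a, Rps12, Rps29 and Rpsa. In proliferating cells 1 member, Rpl39, met the rule (1.15%, against 0.722%). The reverse, STAG1 without STAG2, was met by 0 members in quiescent cells (against 0.388%) and 0 in proliferating cells (against 0.311%). Without STAG1 proliferating replicate 2, the proliferating count became 18, and without STAG1 quiescent replicate 2 the quiescent count became 12. With 20000 peaks in every library, the quiescent count was 6 (6.9%, against 5.85% of all genes). None of these 6 was among the 7 members called on the full lists. The peaks behind the calls on the full lists were weak. Rpsa, which is also known as the laminin receptor precursor, had STAG2 at 6.67 and 7.86 in quiescent cells, against 5.67 and 4.84 in proliferating cells, and STAG1 at 6.95-fold in proliferating replicate 2 only. Rps29, in the head of the small subunit, had STAG2 at 5.54 and 6.34 in quiescent cells, against 5.04 and 6.55 in proliferating cells, and STAG1 at 4.25-fold in the same replicate only. Rps12, of the small subunit, had STAG2 at 4.4 and 4.4 in quiescent cells, against 4.2 and 3.67 in proliferating cells, and STAG1 at 2.8-fold, again in that replicate.

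Cohesin without CTCF was seen at 3 members. STAG2 was called in all 4 libraries and CTCF in none at Rpl21, Rpl22l1 and Rplp1 (3.45%, against 1.87% of all genes). STAG1 was called in all 4 with CTCF in none at 2 of them, Rpl21 and Rplp1 (2.3%, against 0.809%), which therefore had both STAG proteins in all 8 libraries (against 0.695%). With 20000 peaks in every library, STAG2 without CTCF was called at 6 members (6.9%, against 7.72% of all genes). With windows of 2 kb, Rpl21 no longer met either rule. Rpl21, of the large subunit, had STAG2 at 13.5 and 10.4 in quiescent cells, against 9.62 and 10.4 in proliferating cells, at chr5:146832619-146833648, and STAG1 at 7.15 and 7.42 in quiescent cells, against 7.0 and 15.4 in proliferating cells. Rpl22l1, the paralog that can stand in for Rpl22, had STAG2 at 5.0 and 5.33 in quiescent cells, against 5.0 and 4.8 in proliferating cells, and STAG1 in replicate 2 of each state. Its partner Rpl22 had a CTCF site at chr4:152332820-152333661, at 52.9 and 48.4 in quiescent cells, against 60.4 and 55.4 in proliferating cells, so this pair of paralogs differed in CTCF.

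CTCF without cohesin was seen at Rps2 alone when both gene ends were used (1 member, 1.15%, against 0.612%), and CTCF without STAG2 at Rps2 and Rpl37rt (2 members, against 0.928%). For Rps2, a small subunit protein near the messenger RNA entry, this was a matter of the window. The listed start lies 1864 bp from the nearest end of the model, and the site there, chr17:24718871-24720587, had STAG2 at 9.91 and 3.17 in quiescent cells, against 4.53 and 3.67 in proliferating cells, and CTCF at 9.06 and 24.6 in quiescent cells, against 9.92 and 7.76 in proliferating cells. Rpl37rt, a retrogene copy, had CTCF at 7.98 and 16 in quiescent cells, against 8.98 and 8.48 in proliferating cells, at one end; over the whole model with its margin, STAG2 peaks were present in 3 libraries. The members with a listed start more than 1 kb inside the model were Rpl18, Rpl19, Rpl22, Rps2 and Rps27l. All 5 had STAG2 in all 4 libraries at that start, but the same share was not computed over all genes. At Rpl22 these peaks were weak, at 3.33 and 3.8 in quiescent cells, against 3.6 and 4.4 in proliferating cells.

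Taking single sites in place of genes, overlapping peaks of the 12 libraries merged into 143 sites at 83 members, and 41 members had 2 or more. A merged site could reach a window while the peak of a single library in it did not, as at Rps2, Rps27l and Rplp0. All 12 libraries had a peak at 45 sites (31.5%), against 39.6% of the 19031 sites at the ends of all genes. STAG2 in all 4 libraries with no CTCF was found at 5 sites (3.5%, against 2.85%), at Rpl21, Rpl22l1, Rplp1, Rps26 and the start of Rps19. CTCF in all 4 libraries with no STAG peak was found at 11 sites (7.69%, against 2.9%), among them sites at Rpl3, Rpl7a, Rpl19, Rpl27, Rpl37 and Rpl37rt. Rpl7a and Rpl19 had a pair of such sites each. CTCF in any library with no STAG peak was found at 29 sites (20.3%, against 12.5%), and STAG in any library with no CTCF peak at 17 (11.9%, against 18.0%). None of the 10 genes with such a 4-library CTCF site met the rule by gene, since each also had a STAG peak at another site in at least 1 library.

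At the Rpl7a gene, for example, CTCF without STAG was called at chr2:26909140-26909900, at 19 and 20.3 in quiescent cells, against 13.8 and 10.0 in proliferating cells, upstream of the promoter site with strong STAG2. The members' strongest STAG2 peak overlapped a CTCF peak of both CTCF libraries of its state in 68.9% and 72.2% of the occupied members in quiescent cells and in 74.0% and 71.2% in proliferating cells, against 71.7% to 79.6% over all occupied genes.

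The median STAG2 summit lay downstream of the start and the median CTCF summit upstream of it. Of members with a listed start and a peak, 87.0% to 89.1% had the STAG2 summit nearer to the start than to the other end of the gene, against 88.3% to 90.3% of all genes. For STAG1 the range was 82.1% to 86.0%, against 86.5% to 88.0%, and for CTCF 71.7% to 78.0%, against 80.4% to 83.7%. Among summits within 1 kb of the start, the median STAG2 summit lay 118.5 and 124.5 bp downstream of it in the quiescent libraries and 9.0 and 121.0 bp downstream in the proliferating ones. The median CTCF summit lay upstream, at -109 and -108 bp in quiescent and -81.5 and -58 bp in proliferating libraries. Over all genes both were downstream, at 51 to 78 bp for STAG2 and 19 to 66 bp for CTCF. STAG1 was unsettled between libraries, at -41.0 and 41.5 bp in quiescent and 129.0 and 115.0 bp in proliferating cells.

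**Figure D4:**
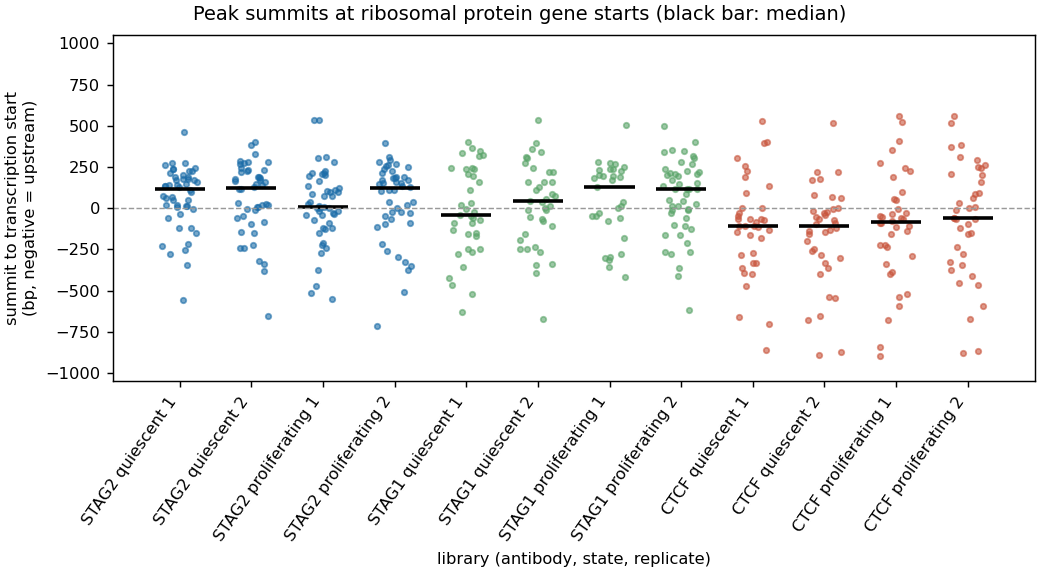
Distance of the summit of the strongest peak from the listed transcription start, in bp with upstream negative (y axis), in each of the 12 libraries (x axis); each point is a ribosomal protein gene and black bars are medians. CTCF medians lie between -109 and -58 bp, and STAG2 medians between 9.0 and 124.5 bp.

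The same was measured within single genes, as the STAG summit minus the summit of the CTCF peak that overlapped it, along the direction of transcription. In quiescent cells STAG2 could be measured at 29 members with a median of 103 bp downstream of CTCF, against 5.0 bp over 5695 genes, when the distance of a gene was averaged over pairs of libraries; 15 of the 29 (51.7%) lay more than 100 bp downstream, against 20.0% of all genes. In proliferating cells the median over 32 members was 36.5 bp, and 6 (18.8%) lay more than 100 bp downstream, against 17.2%. The single pairs of a STAG2 and a CTCF library gave member medians of 59.0 to 74.0 bp in quiescent cells, all under the averaged one, and of 12.0 to 37.5 bp in proliferating cells, against 2.0 to 6.0 bp and -6.0 to 2.0 bp over all genes. For STAG1 the medians were 28.5 bp over 25 members in quiescent cells and 25.5 bp over 26 members in proliferating cells, with 8 (32.0%, against 20.3%) and 9 (34.6%, against 18.2%) past 100 bp. Each of these STAG2 and CTCF pairs gave 41.4% to 48.3% of members past 100 bp in quiescent cells and 15.6% to 31.2% in proliferating cells, so the ranges of the states did not overlap, although pairs share libraries.

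For the 26 members measured in both states, the STAG2 distance was larger in quiescent cells at 23, with medians of 112 bp in quiescent and 33.2 bp in proliferating cells; over all genes it was larger in quiescent cells at 54.1% of 5240. For STAG1 it was larger in quiescent cells at 10 of 22 members, against 54.0% of all genes. Taken from 1 library of each kind, over the 16 combinations, the STAG2 count lay between 15 and 21 of 26. All of these lay under the 23 from averaged distances. The STAG1 count lay between 5 and 14 of 22. The combinations were not counted over all genes, so these counts have no share beside them. These distances were examined after the positions above had been seen, and no test was run on them.

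Rpl9, of the large subunit, had a mean STAG2 distance of 334 bp in quiescent cells, against 67.0 bp in proliferating cells, and all 4 quiescent library pairs (270 to 397 bp) lay above all 4 proliferating pairs (30 to 104 bp). Rpl12, which helps bind translation factors beside the P stalk, had 299 bp in quiescent cells, against -1.5 bp in proliferating cells, where the pairs ran from -301 to 298 bp. Rplp0 had 258 bp in quiescent cells, against 114 bp in proliferating cells, with all quiescent pairs at or above 197 bp and all proliferating pairs at or below it. Rps16, of the small subunit, had 217 bp in quiescent cells, against 55 bp in proliferating cells, with overlapping pairs. Rpl5 differed less, at 238 bp in quiescent cells, against 203 bp in proliferating cells. Rpl14 ran the other way, at -130 bp in quiescent cells, against 387 bp in proliferating cells, where the summits of the CTCF replicates lay far apart.

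**Figure D5:**
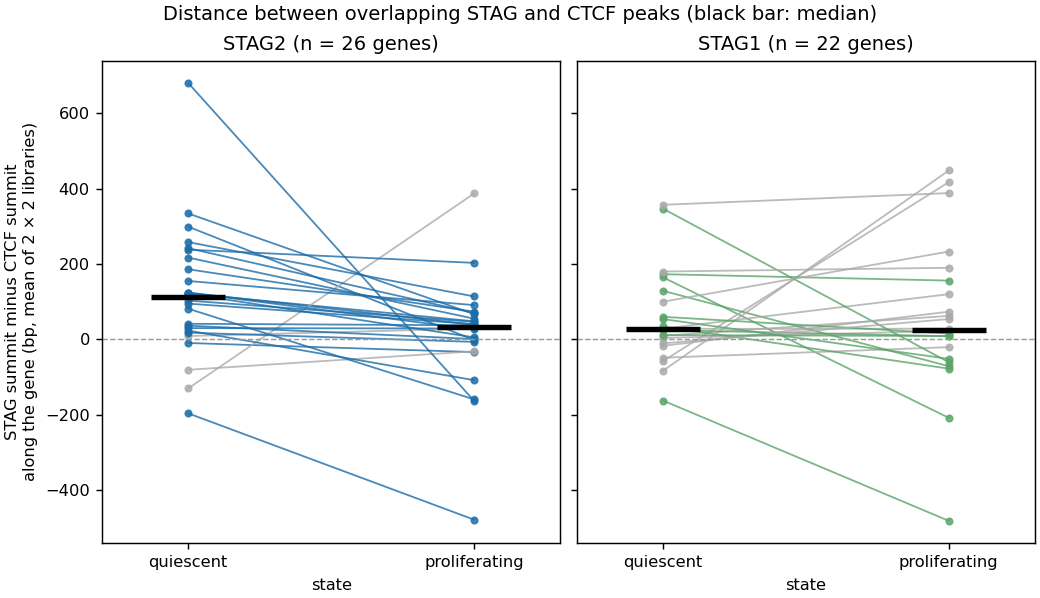
STAG summit minus summit of the overlapping CTCF peak along the gene, in bp and averaged over the library pairs (y axis), in quiescent and proliferating cells (x axis) for STAG2 (left, 26 genes) and STAG1 (right, 22 genes); each line is a ribosomal protein gene, coloured where the distance is larger in quiescent cells and grey otherwise, and black bars are medians. Of the STAG2 lines, 23 run downwards to the right, and of the STAG1 lines 10.

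Other gene groups of the translation machinery had shares of the same order. STAG2 was in both quiescent libraries at 65 of 78 mitochondrial ribosomal protein genes (83.3%) and in both proliferating libraries at 66 (84.6%), and STAG1 at 60 (76.9%) and 62 (79.5%) of them, higher than at the cytosolic genes. Of 17 translation factors with TOP messages, such as the eEF1 and eEF2 genes, 16 had STAG2 in both quiescent and 15 in both proliferating libraries. Of 35 ribosome biogenesis genes the counts were 27 and 30. The high STAG2 share was thus not seen at cytosolic ribosomal protein genes alone, and the differences between these groups were not tested.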

How the data were processed

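STAG2, STAG1 and CTCF were mapped by ChIP-seq in quiescent and proliferating NU1 cells, with 2 libraries in each of 6 groups. The build was mm10 per the submitters' processing notes, which also list MACS2, HOMER, BWA, Picard and bcl2fastq; versions and settings are not given in the sources used here. As deposited by the authors, there was 1 peak list per library, with replicates not pooled. Each deposited list gives a fold enrichment (a ratio over the control), a -log10 p-value, a -log10 q-value and the offset of the summit of each peak, as the peak caller wrote them. A further sample, titled input but treated as an IgG control in the labels, was not analysed here, so which of them the folds are measured over was not settled. The smallest -log10 q lay between 1.31 and 1.57 in a library.

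From these files, gene ends were taken from RefSeq (GRCm38.p6), windows of 1 kb were drawn on each side, and a peak counted with an overlap of 1 bp or more. Percentiles rank the highest fold at a gene among all peaks of its library. Peaks of the 12 libraries that overlap were merged into sites. Strand is known only for genes in the promoter table, so positions use those. Occupancy counting was tested on simulated peaks. Python 3.11.15, numpy 2.4.6, pandas 2.3.3 and matplotlib 3.10.9 were used. No test was run. Alternatives were a -log10 q of at least 5, the 20000 strongest peaks of each list, windows of 2 kb and 500 bp, summits in place of overlaps, ranks by -log10 p, leaving out members that share a window, and leaving out each library.

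The members and the gene lists were chosen with earlier results of these data known. Genes were named where they were among the first 6 for a protein by mean percentile over all 4 libraries. Also named were genes called in 1 state only, called with STAG and without CTCF or the reverse, or without any peak. The lists for the P stalk, Mdm2 binding, Diamond-Blackfan anaemia and paralogs gave further names. Rpl7a, Rpl9, Rpl12, Rpl14, Rpl36a, Rpl37, Rps16 and the genes with STAG2 and without STAG1 were chosen after their values were seen, as were the distances between STAG and CTCF summits, the merged sites and the whole gene models. Some genes that met these rules are not reported here by name.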

Additional observations from a re-analysis of the deposited data

How the results depend on the processing

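Of the values recomputed under the other settings, 97 stayed within 1.5 times the reported count or within 1 SD of the reported value and 48 moved; of those recomputed without 1 library, 56 stayed and 24 moved. Members occupied per group moved only where lists or members were fewer. With 20000 peaks in every library they were 38 and 34 for STAG2, 26 and 27 for STAG1 and 37 and 32 for CTCF, in quiescent and proliferating cells. Without members that share a window, which leaves 43 members, they were 34 and 36 (79.1% and 83.7%), 27 and 25 (62.8% and 58.1%), and 24 and 26 (55.8% and 60.5%); the CTCF shares thus came nearer to those of all genes (46.6% and 50.1%) than the 69.0% and 73.6% over all members. STAG2 without STAG1 in quiescent cells was 4. Without 1 library they ranged from 72 to 74 and were 73 for STAG2, from 59 to 63 and 54 to 76 for STAG1, and from 67 to 70 and 67 to 69 for CTCF.

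Counts of a few genes were not stable, and the cause was not tested. Members with STAG2 in quiescent cells only were 4 with 20000 peaks (4.6%, against 2.67% of all genes). At the stricter q, a -log10 q of 5 or more, they were 2 (2.3%, against 1.17%). They were 0 with windows of 2 kb or 500 bp, with summits inside the window, and with listed starts added to the ends, an alternative chosen after seeing the data. Without 1 library they were 1 to 3. STAG2 in proliferating cells only was 2 with 20000 peaks (2.3%, against 0.398%) and 1 to 4 without 1 library. STAG1 in quiescent cells only was 1 with 20000 peaks (1.15%, against 0.603%) and 0 to 5 without 1 library. In proliferating cells only it was 1 at the stricter q (1.15%, against 1.27%), 1 at 2 kb (1.15%, against 1.19%) and 2 at 500 bp (2.3%, against 1.21%). It was 0 to 11 without 1 library, the highest without proliferating replicate 1. CTCF in quiescent cells only was 0 at the stricter q (against 0.507%), 2 with 20000 peaks (2.3%, against 0.366%) and 2 to 4 without 1 library. In proliferating cells only it was 1 at the stricter q (1.15%, against 1.69%), 3 at 500 bp (3.45%, against 1.65%) and 0 to 5 without 1 library.

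STAG2 in all 4 libraries with no CTCF was 6 with 20000 peaks (6.9%, against 7.72% of all genes), with only Rpl21 kept from the main count. At 2 kb it was 2 (2.3%, against 1.44%), Rpl22l1 and Rplp1, so Rpl21 was lost. At the stricter q it was 3 (3.45%, against 2.64%), with Rps24 in place of Rplp1. It was 3 to 4 without 1 library. STAG1 with no CTCF was 1 at the stricter q (1.15%, against 1.26%), 4 with 20000 peaks (4.6%, against 4.08%) and 1 at 2 kb (1.15%, against 0.635%). It was 2 without any 1 library. CTCF with no STAG was 2 at the stricter q (2.3%, against 0.644%) and 2 with 20000 peaks (2.3%, against 0.786%). It was 0 at 2 kb, at 500 bp, with summits, without shared windows and with listed starts, and 1 to 2 without 1 library. STAG2 without STAG1 in proliferating cells was 0 with 20000 peaks (against 1.94%) and 1 to 18 without 1 library. In quiescent cells it was 6 with 20000 peaks (6.9%, against 5.85%) and 7 to 12 without 1 library. STAG1 without STAG2 was 1 in quiescent cells with 20000 peaks (1.15%, against 0.676%) and with summits, and 0 without any 1 library. In proliferating cells it was 1 at the stricter q (1.15%, against 0.489%) and with summits, and 0 to 4 without 1 library.

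The median percentile of members minus that of all genes moved for STAG2 in proliferating cells to -7.59 by -log10 p and -7.75 with 20000 peaks, for STAG1 in quiescent cells to -12.1 and for CTCF in proliferating cells to 17.8, both with 20000 peaks. No paired analysis was possible because no result comes from a test. Without read totals, a missing peak may be a peak under the caller's threshold, and lists of unequal length are not on one scale.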
